A study of Mus musculus with 12 samples.

Results

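Smooth muscle contracts when myosin heads pull on actin filaments, after a kinase switched on by calcium has phosphorylated the myosin regulatory light chain. In the lung these cells ring the airways and the vessels, and several of their contractile proteins, alpha smooth muscle actin above all, are also made by the myofibroblasts of injured tissue. Many contractile genes share control by serum response factor (SRF), which binds the CArG box and works together with the coactivator myocardin. The 10 genes described here encode proteins of this apparatus: the actins Acta2 and Actg2, the actin-binding proteins Tagln, Cnn1, Tpm2, Lmod1 and Synpo2, the heavy chain Myh11, the intermediate filament protein desmin (Des), and the coactivator itself (Myocd). They were chosen by name, and each was read from the 1 transcript cluster (the probe set of a gene) that carries its symbol alone, so that 10 of the 35556 clusters on the array are described. All 10 were among the 23410 clusters with a gene symbol that were tested.

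Affymetrix MoGene 1.0ST arrays, 1 for each mouse, were hybridised with left lung RNA of 12 mice in 4 groups of 3 and read on the log2 scale. KOT were Fra-1-/- mice (Fra-1Δ/Δ in the study) given 0.075 U of bleomycin, a DNA-damaging agent that injures the lung, in 30 µL of PBS into the trachea. WTT were Fra-1+/+ mice given the same dose, KOC were Fra-1-/- mice given 30 µL of PBS, and WTC were Fra-1+/+ mice given 30 µL of PBS, and all lungs were taken at day 5. All 12 mice were of the mixed C57/129S strain background, and the labels give females of 2 months, where the study's methods give an older range. By the methods, all carried floxed alleles of Fra-1, and the Fra-1-/- mice also carried Meox2(Sox2)-Cre, which deletes the gene in the whole embryo, while the Fra-1+/+ mice carried no Cre. Each mouse is named by its group and animal number.

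Fosl1, the gene of Fra-1, lay between 7.28 and 7.33 in KOT, 7.81 and 8.32 in WTT, 6.26 and 6.68 in KOC and 6.37 and 6.86 in WTC mice, so that it was lower in every KOT than in every WTT mouse, while KOC and WTC overlapped. Whether the probes target the exons that Cre removes is not given in the sources used here. On 12 of 12 arrays the labelled sex was not matched, since Xist lay between 4.47 and 4.94 and the Y-linked Kdm5d between 7.66 and 8.08, and array medians lay between 7.14 and 7.22. All 6 Fra-1-/- mice and WTC 76 had animal numbers under 100, so genotype and any effect of animal number can hardly be told apart. In whole-lung RNA, fewer cells of a type and less RNA per cell cannot be told apart. Tests came from 1 limma model of all 12 arrays, and a gene passed where its p, adjusted for the 23410 clusters by Benjamini-Hochberg, was under 0.05.

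With bleomycin the differences were above 0 for 6 of 10 genes and below 0 for 4 of 10 in each genotype. In Fra-1+/+ lungs 4 of 10 rose, Tagln, Acta2, Tpm2 and Actg2, by 0.43 to 0.62 on the log2 scale, against 10.2% of all clusters tested that rose and 11.3% that fell, and 0 of 10 fell. In Fra-1-/- lungs 0 of 10 passed, against 7.42% of all clusters that rose and 7.98% that fell. There 2 of 10 had an unadjusted p under 0.05, as did 28.8% of all clusters. The median log2 fold change over the 10 genes was 0.30 in Fra-1+/+ and 0.07 in Fra-1-/- lungs, with a median of 0.02 over all clusters in both. The groups of single mice did not overlap for 6 of 10 genes between WTT and WTC, against 35.7% of all clusters, and overlapped for 10 of 10 genes between KOT and KOC, where 35.4% of all clusters did not overlap.

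**Figure D1:**
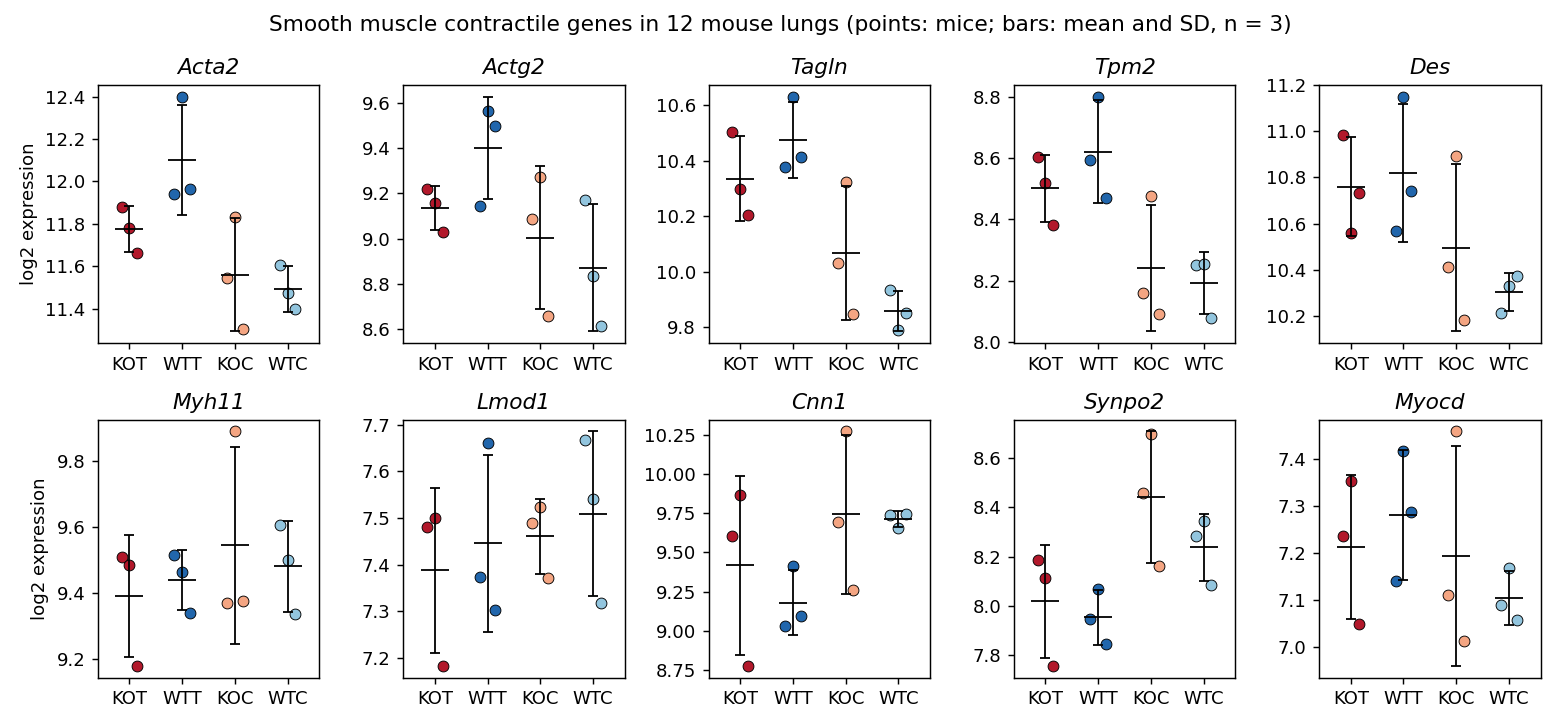
Log2 expression of the 10 contractile genes in each of the 12 mice (points, 3 a group), with the mean and SD of each group as bars. The y axis is log2 expression on a scale of its own in each panel, and the x axis gives the groups KOT, WTT, KOC and WTC. Acta2 lies between 11.94 and 12.40 in WTT, above all mice of the other groups, while Myh11 and Lmod1 overlap in all groups.

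Acta2 encodes alpha smooth muscle actin, the main actin of vascular smooth muscle and of myofibroblasts. Its log2 values were 11.88, 11.78 and 11.66 in KOT mice, 11.94, 12.40 and 11.96 in WTT mice, 11.54, 11.83 and 11.30 in KOC mice and 11.61, 11.47 and 11.40 in WTC mice. Every WTT mouse lay above every other mouse of the series, whereas KOC 55 lay above both KOT 80 and KOT 81. Acta2 was 1.52-fold higher in WTT than in WTC (log2 fold change 0.61, SE 0.15, limma adjusted p = 0.0129). Between KOT and KOC the difference was 0.21 (SE 0.15, adjusted p = 0.379). With bleomycin the KOT mice lay wholly below the WTT mice, as in 8.8% of all clusters. That difference of -0.33, with a 95% interval of -0.65 to -0.01, did not pass (limma adjusted p = 0.462).

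The promoter of Acta2 is shown because it alone, of the 6 of 10 genes with an entry in the RefSeq promoter table (GRCm38.p6), held a match to the CArG box. The 250 bases upstream of its start, chr19:34255374-34255623 on the minus strand, are given 5′ to 3′ with matches to the CArG box, allowing at most 1 G or C in its core of 6 bases, in capitals.
Acta2: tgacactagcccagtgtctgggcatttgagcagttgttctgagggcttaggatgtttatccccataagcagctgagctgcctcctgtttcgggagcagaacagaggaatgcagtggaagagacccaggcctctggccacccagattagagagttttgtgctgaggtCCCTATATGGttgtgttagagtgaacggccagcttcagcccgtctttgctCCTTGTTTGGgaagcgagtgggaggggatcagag
The first match, CCCTATATGG, begins 84 bases and the second, CCTTGTTTGG, 34 bases before the start. Over windows from 250 bases before to 50 after the start, searched on both strands, 9.98% of 32851 promoters held at least 1 such match and 0.822% held 2 or more. The exact CArG box, with no G or C in its core, stood in 0 of the 6 promoters (Acta2, Cnn1, Des, Lmod1, Synpo2 and Tpm2) and in 1.63% of all. A match is a description of the letters, and windows farther from the start were not searched.

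Actg2 encodes gamma smooth muscle actin, known best from visceral smooth muscle. It read 9.22, 9.16 and 9.03 in KOT mice, 9.15, 9.56 and 9.50 in WTT mice, 9.09, 9.27 and 8.66 in KOC mice and 9.17, 8.83 and 8.61 in WTC mice. Unlike the other actin, it overlapped between WTT and WTC, because WTT 160 lay just below WTC 76. Its rise in WTT over WTC was 0.53 (SE 0.17, limma adjusted p = 0.0494), close to the threshold, and its difference between KOT and KOC was 0.13 (SE 0.17, adjusted p = 0.688). Without 1 array it no longer passed in 8 of 12 cases, with adjusted p up to 0.174.

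Tagln encodes transgelin (SM22 alpha), a calponin-related protein that crosslinks actin filaments. It had 10.50, 10.30 and 10.20 in KOT mice, 10.38, 10.63 and 10.41 in WTT mice, 10.03, 10.32 and 9.85 in KOC mice and 9.93, 9.79 and 9.85 in WTC mice. Among the 10 genes it had the smallest adjusted p in Fra-1+/+ lungs, where WTT exceeded WTC by 0.62 (SE 0.12, limma adjusted p = 0.00502, 1.53-fold). In the local-pooled-error test of the study's methods, with a threshold of 0.01, it did not pass there (adjusted p = 0.0274). Acta2 (adjusted p = 0.0536) and Tpm2 (adjusted p = 0.39) also missed in that test, whereas Actg2 passed. Between KOT and KOC the difference was 0.27 (SE 0.12, adjusted p = 0.175), with only KOC 55 reaching into the range of the KOT mice.

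Tpm2 encodes beta-tropomyosin, which lies along the actin filament. The 3 KOT mice had log2 values of 8.60, 8.52 and 8.38 and the WTT mice 8.59, 8.80 and 8.47, against 8.16, 8.48 and 8.09 in KOC and 8.25, 8.25 and 8.08 in WTC mice. All WTT mice lay above all WTC mice, and the rise was 0.43 (SE 0.12, limma adjusted p = 0.0229). The difference between KOT and KOC was 0.26 with a 95% interval of 0.0037 to 0.52 (adjusted p = 0.168). Without WTC 158 or without WTT 161, Tpm2 and Actg2 both missed the threshold between WTT and WTC, leaving 2 of 10 genes, Acta2 and Tagln.

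Des encodes desmin, the intermediate filament protein of smooth, cardiac and skeletal muscle. Its values were 10.99, 10.56 and 10.73 in KOT mice, 10.57, 11.15 and 10.74 in WTT mice, 10.41, 10.89 and 10.18 in KOC mice and 10.21, 10.33 and 10.37 in WTC mice. WTT lay wholly above WTC, as did 18.3% of all clusters, by 0.52 (SE 0.19), and this missed the threshold (limma adjusted p = 0.071) with all arrays but passed without KOC 55 (adjusted p = 0.0367) or without WTT 160 (adjusted p = 0.0415). Between KOT and KOC the difference was 0.26 (SE 0.19, adjusted p = 0.394). Cardiac muscle, which can enter a lung sample with the pulmonary veins, also makes desmin. Of 12 cardiac markers 7 fell in WTT against WTC, among them Myl4, the atrial light chain (log2 fold change -1.90, SE 0.31, limma adjusted p = 0.00188), and the mean of the 12 markers ranged from 7.85 to 8.39 in WTT mice, against 8.93 to 9.43 in WTC mice. In KOT mice it ranged from 8.65 to 8.98, against 8.20 to 9.74 in KOC mice, where 0 of 12 passed. Of 12 skeletal markers 1 rose and 0 fell in KOT against KOC and 0 rose and 2 fell in WTT against WTC, and their mean lay between 6.48 and 6.69 on all arrays. Beside the cardiac and skeletal counts stand the shares of all clusters, 7.42% that rose and 7.98% that fell in KOT against KOC. In WTT against WTC these shares were 10.2% that rose and 11.3% that fell. The part of either muscle in the values of Des was not tested.

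Myh11 encodes smooth muscle myosin heavy chain, regarded as the most restricted marker of the smooth muscle cell. It read 9.51, 9.49 and 9.18 in KOT mice, 9.52, 9.47 and 9.34 in WTT mice, 9.37, 9.89 and 9.38 in KOC mice and 9.61, 9.50 and 9.34 in WTC mice. The groups overlapped throughout. The difference between WTT and WTC was -0.04 with a 95% interval of -0.35 to 0.27 (limma adjusted p = 0.876). The 0.61 measured for Acta2 lies outside it but has an interval of its own, 0.29 to 0.93. The model did not test these genes against each other. The difference of Myh11 between KOT and KOC was -0.15 (interval -0.46 to 0.16, limma adjusted p = 0.535).

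Lmod1 encodes leiomodin, a nucleator of actin filaments in smooth muscle, and it followed the same course. Its values ranged from 7.18 to 7.50 in KOT, 7.30 to 7.66 in WTT, 7.37 to 7.52 in KOC and 7.32 to 7.67 in WTC mice. The differences of -0.06 between WTT and WTC (interval -0.33 to 0.21) and of -0.07 between KOT and KOC (interval -0.34 to 0.20) did not pass. Myocd, the SRF coactivator, ranged from 7.05 to 7.35 in KOT, 7.14 to 7.42 in WTT, 7.01 to 7.46 in KOC and 7.06 to 7.17 in WTC mice. Its differences were 0.18 (SE 0.12, limma adjusted p = 0.347) between WTT and WTC and 0.02 (SE 0.12, adjusted p = 0.946) between KOT and KOC.

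Cnn1 and Synpo2, like Myh11 and Lmod1, had negative differences with bleomycin in both genotypes, and none of them passed in the main model. Cnn1 encodes calponin, which binds actin and restrains the myosin ATPase. It had 9.61, 9.87 and 8.78 in KOT mice, 9.03, 9.42 and 9.10 in WTT mice, 9.70, 10.27 and 9.26 in KOC mice and 9.74, 9.66 and 9.75 in WTC mice. All WTT mice lay below all WTC mice, as in 17.4% of all clusters, with a difference of -0.53, but its SE of 0.27 was the largest of the 10 genes and the adjusted p was 0.201. The WTC mice lay within 0.09 of each other, whereas KOT and KOC mice of 1 group differed by up to 1.09. Fitted to the 6 arrays of WTT and WTC alone, the same difference passed (limma adjusted p = 0.0203), and it did so in the local-pooled-error test of the study's methods (difference of medians -0.64, adjusted p = 0.00888).

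Synpo2 encodes synaptopodin 2 (myopodin), an actin-bundling protein of the Z-disc and of dense bodies. Its values were 8.19, 8.11 and 7.76 in KOT mice, 7.95, 8.07 and 7.84 in WTT mice, 8.46, 8.70 and 8.16 in KOC mice and 8.28, 8.35 and 8.09 in WTC mice. All WTT mice lay below all WTC mice, while KOT 72 lay just above KOC 67. The difference was -0.42 (SE 0.14, limma adjusted p = 0.0732) between KOT and KOC and -0.28 (SE 0.14, adjusted p = 0.196) between WTT and WTC. It had the smallest adjusted p of the 10 genes in Fra-1-/- lungs, and passed there when arrays were weighted by their quality (limma adjusted p = 0.0246). With those weights 7118 of all clusters passed between KOT and KOC, against 3604 in the main model.

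**Figure D2:**
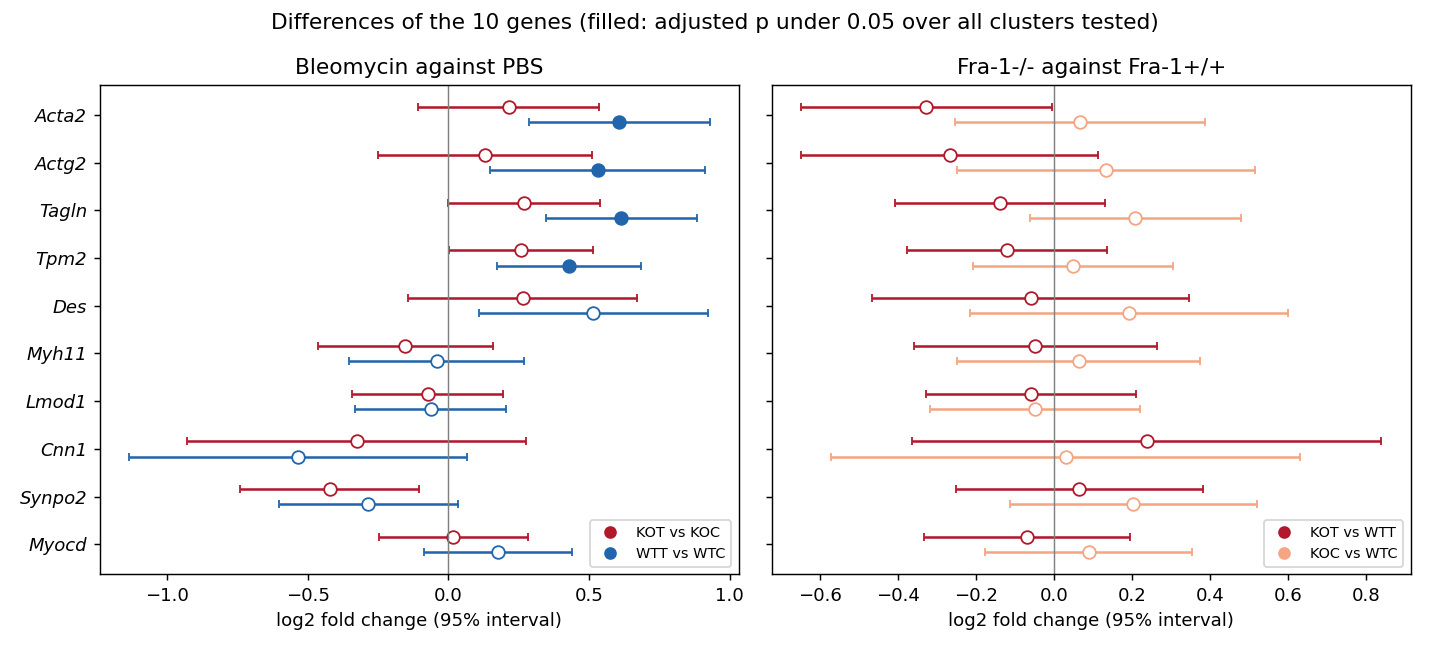
Log2 fold changes of the 10 genes with 95% intervals on the x axis, for bleomycin against PBS (left, KOT vs KOC above WTT vs WTC for each gene) and for Fra-1-/- against Fra-1+/+ (right, KOT vs WTT above KOC vs WTC). Filled points passed at an adjusted p under 0.05 over 23410 clusters, and the 4 filled points are Acta2, Actg2, Tagln and Tpm2 in WTT vs WTC.

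Between genotypes none of the 10 genes passed. With bleomycin 0 of 10 passed between KOT and WTT, against 0.0427% of all clusters that were higher in KOT and 0% that were lower, and 1 of 10, Acta2, had an unadjusted p under 0.05, as did 10.6% of all clusters. The 10 differences ran between -0.33 for Acta2 and 0.24 for Cnn1, and 8 of 10 were below 0. The mice overlapped for 9 of 10, where 15.7% of all clusters did not overlap. With PBS 0 of 10 passed between KOC and WTC, against 0.0128% of all clusters that were higher and 0% that were lower, and 0 of 10 had an unadjusted p under 0.05, as did 9.82% of all clusters. There the differences ran between -0.05 for Lmod1 and 0.21 for Tagln, 9 of 10 were above 0, and the groups overlapped for 10 of 10, where 16.3% of all clusters did not overlap.

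The response to bleomycin in Fra-1-/- mice minus that in Fra-1+/+ mice was below 0 for 9 of 10 genes, but 0 of 10 passed, as for 0% of all clusters, and adjusted p in limma lay between 0.963 and 0.998. It was -0.39 for Acta2 (95% interval -0.85 to 0.06), -0.40 for Actg2 (interval -0.94 to 0.14) and -0.35 for Tagln (interval -0.73 to 0.03). The passing of 4 genes in one genotype and of 0 in the other is therefore not shown to be a difference between the genotypes, and the intervals leave room both for equal responses and for responses in Fra-1-/- lungs that are smaller by more than the response in Fra-1+/+ lungs. The comparisons share groups, so the signs in one bear on those in the next.

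Much of the spread within groups was common to the 10 genes, though not to them alone. KOC 55 had the highest value of its group for 10 of 10 genes and KOC 67 the lowest for 9 of 10, with mean deviations from the group means of 0.29 for KOC 55 and -0.25 for KOC 67. WTT 161 was the highest of its group for 9 of 10 (0.19), KOT 81 the lowest for 9 of 10 (-0.20), and WTC 158 the lowest for 7 of 10 (-0.09). After group means were subtracted, the correlation over the 12 mice (a description, since the genes share arrays) was above 0 for 45 of 45 pairs of genes, between 0.38 and 0.93 with a median of 0.76. Before, it ran between -0.26 and 0.95 with a median of 0.45. Each gene correlated with the mean of the other 9 at 0.69 (Des) to 0.93 (Tpm2), while the median over the 19928 other named genes was 0.03, and 2.45% of them reached 0.69.

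**Figure D3:**
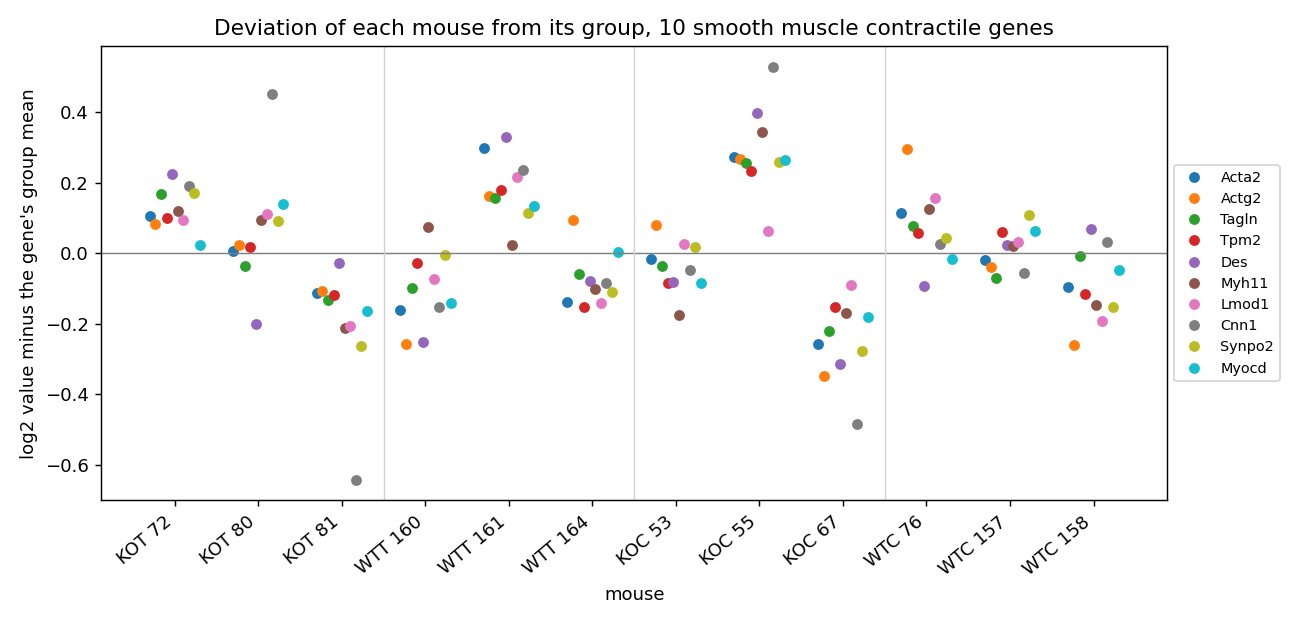
Deviation of each mouse from the mean of its group (y axis, log2) for each of the 10 genes (coloured points), by mouse (x axis), with the groups KOT, WTT, KOC and WTC from left to right. All points of KOC 55 lie above 0 and all points of KOC 67 and KOT 81 below 0.

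The genes nearest to the 10 by this measure were Myl9, the regulatory light chain of smooth muscle myosin (r = 0.95), Lama2, a laminin chain (r = 0.95), Spag4 (r = 0.95), Myoz1, a Z-disc protein of skeletal muscle (r = 0.95), and Aoc3, an amine oxidase abundant in vascular smooth muscle (r = 0.93). Without subtraction of group means they were Aadacl2 (r = 0.93), Myl9 (r = 0.92), Gm10561 (r = 0.87), 1700037H04Rik (r = 0.85) and Efs (r = 0.85), over 12 mice among 19928 genes. Myl9 did not pass with bleomycin, at 0.16 (limma adjusted p = 0.474) in Fra-1+/+ and 0.01 (adjusted p = 0.982) in Fra-1-/- lungs. The order of mice was shared in part by other lists. KOC 55 was the highest and KOC 67 the lowest KOC mouse also in the mean of the contractile partners (10.21 for KOC 55 and 10.05 for KOC 67), of the pericyte markers (8.77 and 8.69), of the fibroblast markers (10.85 and 10.56), of the myofibroblast and matrix genes (9.91 and 9.67) and of the skeletal muscle markers (6.55 and 6.48). WTT 161 was the highest WTT mouse for these lists but the fibroblast markers, and KOT 81 the lowest KOT mouse for the partners and the pericyte markers. The KOC order held also for the list of SRF and related regulators (10.04 for KOC 55 and 9.92 for KOC 67). It held for the endothelial markers too (11.51 and 11.27). For both of these lists WTT 161 was the lowest WTT mouse and KOT 81 the lowest KOT mouse. Airway epithelial markers were lowest in KOC 55 (10.13) and highest in KOC 67 (10.34) within KOC. The mean of the 12 cardiac markers was also highest in KOC 55 but, within KOC, lowest in KOC 53, while within WTT it was highest in WTT 161 and within KOT lowest in KOT 81. The part of the shared spread in the comparisons was seen by leaving mice out. Without KOC 55, the differences between KOT and KOC were 0.40 for Tagln (adjusted p = 0.0553), 0.38 for Tpm2 (adjusted p = 0.0605), 0.46 for Des (adjusted p = 0.122) and 0.35 for Acta2 (adjusted p = 0.166), so that 0 of 10 still passed. Leaving out KOC 67 instead made the same differences smaller, 0.16 for Tagln, 0.18 for Tpm2, 0.11 for Des and 0.085 for Acta2. Without KOC 67, Synpo2 fell in KOT against KOC (-0.56, limma adjusted p = 0.0247), while without KOC 55 it had -0.29 (adjusted p = 0.252).

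Relative to Myh11 of the same mouse, a measure chosen after the values had been seen and in which a level common to the 10 genes cancels, the members parted in both genotypes. The log2 value of Acta2 minus that of Myh11, which has meaning only between mice and not as a level, was 2.37, 2.29 and 2.48 in KOT mice and 2.43, 2.93 and 2.62 in WTT mice, against 2.17, 1.94 and 1.93 in KOC mice and 2.00, 1.97 and 2.06 in WTC mice. All 6 bleomycin-treated mice thus lay above all 6 PBS-treated mice. The difference from PBS averaged 0.37 in Fra-1-/- and 0.65 in Fra-1+/+ lungs. Myh11's own difference, -0.15 between KOT and KOC and -0.04 between WTT and WTC, is part of these values. Acta2 by itself had 0.21 between KOT and KOC and did not pass. All differences in this measure share Myh11, so they are not independent of each other. For Tagln the ratio on the log2 scale was between 0.81 and 1.02 in KOT and between 0.86 and 1.17 in WTT, against 0.43 to 0.66 in KOC and 0.29 to 0.51 in WTC, again without overlap between treatments.

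Tpm2 relative to Myh11 was higher in all bleomycin-treated mice too, by 0.41 in Fra-1-/- and 0.47 in Fra-1+/+ lungs, and Des was higher within each genotype, by 0.42 in Fra-1-/- and 0.56 in Fra-1+/+ lungs. Synpo2 relative to Myh11 was lower in all KOT than in all KOC mice (-0.27) and in all WTT than in all WTC mice (-0.24). In all, 4 of 9 genes lay wholly above and 1 of 9 wholly below between KOT and KOC, against 12.3% and 2.93% of all other clusters in this measure, and 5 of 9 above and 2 of 9 below between WTT and WTC, against 15.1% and 10.9%. Between KOT and WTT 9 of 9 overlapped, where 7.23% of all other clusters did not, and between KOC and WTC 9 of 9 overlapped, where 4.27% did not. With 3 mice against 3, an exact two-sided permutation test cannot give a p under 0.1, which is the p of each of these separations. The shares of other clusters are not an even yardstick in this measure. Subtracting Myh11 removes spread that the 9 genes share with it, and adds that spread to clusters that do not share it. By their own values, 10 of 10 genes overlapped between KOT and KOC, where 35.4% of all clusters did not overlap.

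**Figure D4:**
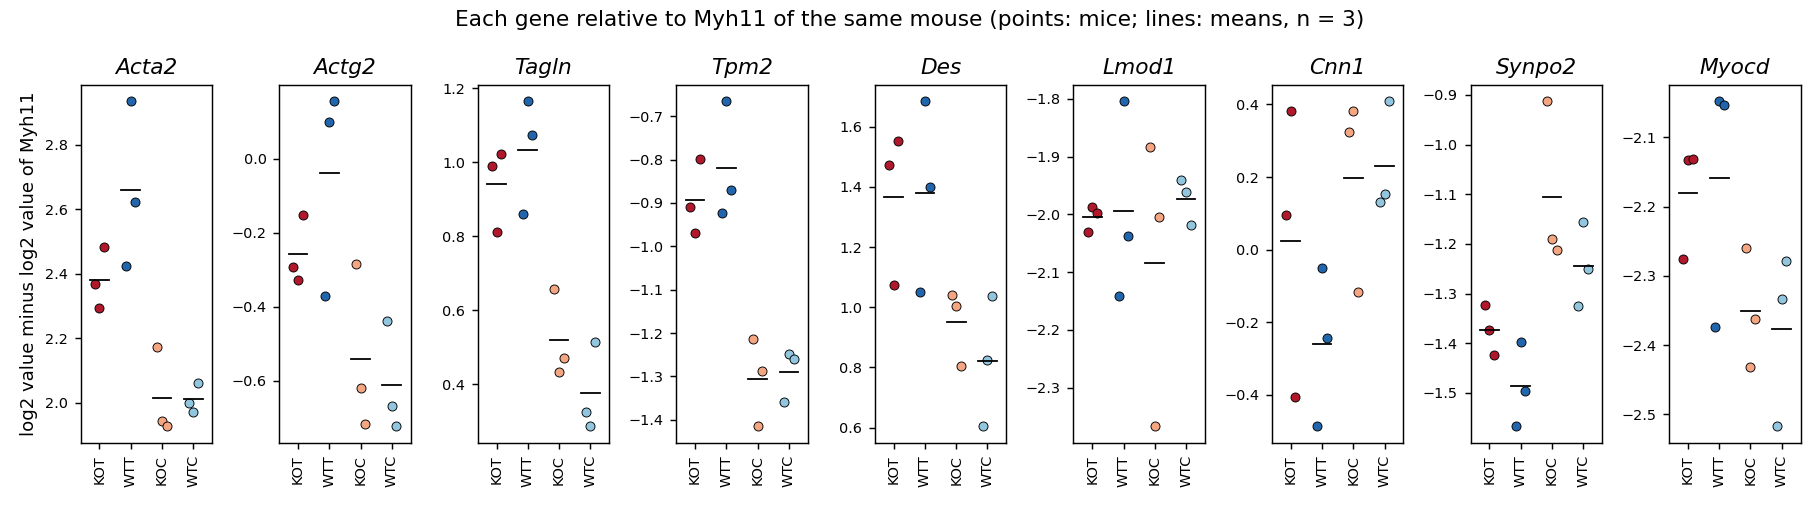
Log2 value of each of 9 contractile genes minus the log2 value of Myh11 in the same mouse (y axis, a scale of its own in each panel), by group (x axis, KOT, WTT, KOC and WTC), with 1 point a mouse and a line at the mean of 3. Acta2 lies between 2.29 and 2.93 in all bleomycin-treated mice and between 1.93 and 2.17 in all PBS-treated mice.

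The partners of these proteins in the contractile apparatus moved in both directions. Of 28 genes listed, 26 were measured, and 5 rose and 9 fell in KOT against KOC, while 7 rose and 7 fell in WTT against WTC, with median log2 fold changes over the list of -0.08 in Fra-1-/- and -0.01 in Fra-1+/+ lungs. Of all clusters 7.42% rose and 7.98% fell in KOT against KOC, and 10.2% rose and 11.3% fell in WTT against WTC. The counts of every list are to be read beside these shares. Actn1, the non-muscle alpha-actinin that anchors actin, rose by 0.61 (SE 0.09) in Fra-1-/- and by 0.72 (SE 0.09) in Fra-1+/+ lungs, and the tropomyosin gene Tpm4 by 0.40 in Fra-1-/- and 0.58 in Fra-1+/+ lungs. Itga8, an integrin chain of mesenchymal cells, fell in both, with log2 fold changes of -1.36 in Fra-1-/- and -1.13 in Fra-1+/+ lungs. Ppp1r14a, an inhibitor of myosin phosphatase known as CPI-17, also fell, with -0.63 in Fra-1-/- and -0.49 in Fra-1+/+ lungs.

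Of 20 genes listed as SRF and related regulators, most of them not coactivators of SRF, 0 rose and 8 fell in KOT against KOC. There 7.42% of all clusters rose and 7.98% fell. In WTT against WTC 3 of the 20 rose and 6 fell, where 10.2% rose and 11.3% fell. The coactivator Mrtfa had 0.20 (limma adjusted p = 0.0893) in Fra-1-/- and 0.22 (adjusted p = 0.0557) in Fra-1+/+ lungs. Mrtfb had 0.0016 (adjusted p = 0.995) in Fra-1-/- and 0.079 (adjusted p = 0.671) in Fra-1+/+ lungs. Srf itself did not pass, at 0.11 (limma adjusted p = 0.522) in Fra-1-/- and 0.22 (adjusted p = 0.151) in Fra-1+/+ lungs. Tcf21, a transcription factor of lung fibroblasts, fell in both, with -0.83 in Fra-1-/- (limma adjusted p = 0.0027) and -0.90 in Fra-1+/+ lungs (adjusted p = 0.00132). Tead1, a TEA-domain transcription factor, had -0.64 in Fra-1-/- and -0.52 in Fra-1+/+ lungs, and Klf5, a Krüppel-like factor, had -0.45 in Fra-1-/- and -0.52 in Fra-1+/+ lungs, all past the test. Heyl, a Notch target of mural cells, rose by 0.69 in Fra-1+/+ lungs (adjusted p = 0.00491) and had 0.27 in Fra-1-/- lungs (adjusted p = 0.215).

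Of 22 receptors, channels and enzymes that set smooth muscle tone, 19 were measured. In KOT against KOC 2 rose and 6 fell, and in WTT against WTC 4 rose and 7 fell. Cysltr1, a leukotriene receptor, rose by 0.63 in Fra-1-/- and by 0.95 in Fra-1+/+ lungs. The prostaglandin receptor gene Ptgfr fell, with -1.18 in Fra-1-/- and -0.88 in Fra-1+/+ lungs. Ednrb, an endothelin receptor that endothelium also makes, had -1.18 in Fra-1-/- and -1.22 in Fra-1+/+ lungs and passed in both, and of 10 endothelial markers, Ednrb among them, 8 fell in each genotype. Htr2a, a serotonin receptor, averaged 7.51 ± 0.15 in KOT and 8.23 ± 0.35 in WTT mice (SD, n = 3 each) and was lower in all KOT than in all WTT mice (-0.73, SE 0.15), with an adjusted p of 0.168 in limma. Bdkrb2, a bradykinin receptor, had the smallest unadjusted p of the list for a difference between responses, with -0.39 (adjusted p = 0.0851) in KOT against KOC and 0.62 (adjusted p = 0.00907) in WTT against WTC, and that difference of -1.01 (SE 0.20) did not pass either (adjusted p = 0.754). With PBS alone Bdkrb2 was higher in every KOC than in every WTC mouse, by 0.74 (limma adjusted p = 0.304). Between KOT and WTT its difference was -0.27 (limma adjusted p = 0.524).

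Most myofibroblast and matrix genes rose with bleomycin in both genotypes. Of 15 myofibroblast and matrix genes 14 were measured, and 11 rose and 1 fell in KOT against KOC and 12 rose and 1 fell in WTT against WTC. Tnc, the matrix protein tenascin-C, rose by 2.34 (SE 0.24) in Fra-1-/- and 3.50 (SE 0.24) in Fra-1+/+ lungs. Timp1, an inhibitor of metalloproteinases, rose by 3.62 in Fra-1-/- and 3.95 in Fra-1+/+ lungs, and the fibronectin gene Fn1 by 1.69 in Fra-1-/- and 1.51 in Fra-1+/+ lungs. Their mean lay between 10.62 and 10.90 in KOT, 10.91 and 11.21 in WTT, 9.67 and 9.91 in KOC and 9.62 and 9.84 in WTC mice, so that it rose with Acta2, Tagln and Tpm2 in Fra-1+/+ lungs. Its part in their rise was not tested.

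Of 10 pericyte markers, 1 rose and 0 fell in KOT against KOC, where 7.42% of all clusters rose and 7.98% fell. In WTT against WTC 3 rose and 2 fell, where 10.2% of all clusters rose and 11.3% fell. Cspg4, the NG2 proteoglycan, rose by 0.29 (SE 0.07) in Fra-1-/- and 0.58 (SE 0.07) in Fra-1+/+ lungs, whereas Rgs5, another mural cell marker, rose by 0.70 in Fra-1+/+ lungs (adjusted p = 0.026) and had 0.08 in Fra-1-/- lungs (adjusted p = 0.836). Of 9 fibroblast markers 0 rose and 4 fell in each genotype. Of 8 airway epithelial markers 0 rose and 2 fell in KOT against KOC and 0 rose and 5 fell in WTT against WTC. Of 9 alveolar epithelial markers 0 rose and 6 fell in KOT against KOC (median log2 fold change -0.63) and 0 rose and 7 fell in WTT against WTC (-0.70), and their mean lay between 11.33 and 11.84 in KOT, 11.24 and 11.65 in WTT, 12.21 and 12.25 in KOC and 12.12 and 12.25 in WTC mice. Of 10 leukocyte markers 5 rose and 1 fell in KOT against KOC (median 0.54) and 5 rose and 2 fell in WTT against WTC (0.47), with means between 10.52 and 10.83 in KOT, 10.48 and 10.78 in WTT, 10.07 and 10.43 in KOC and 9.94 and 10.47 in WTC mice. The part of these cells in the values of the 10 genes was not tested. In the genotype comparisons and in the difference between responses 0 genes of any of these lists passed.

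**Figure D5:**
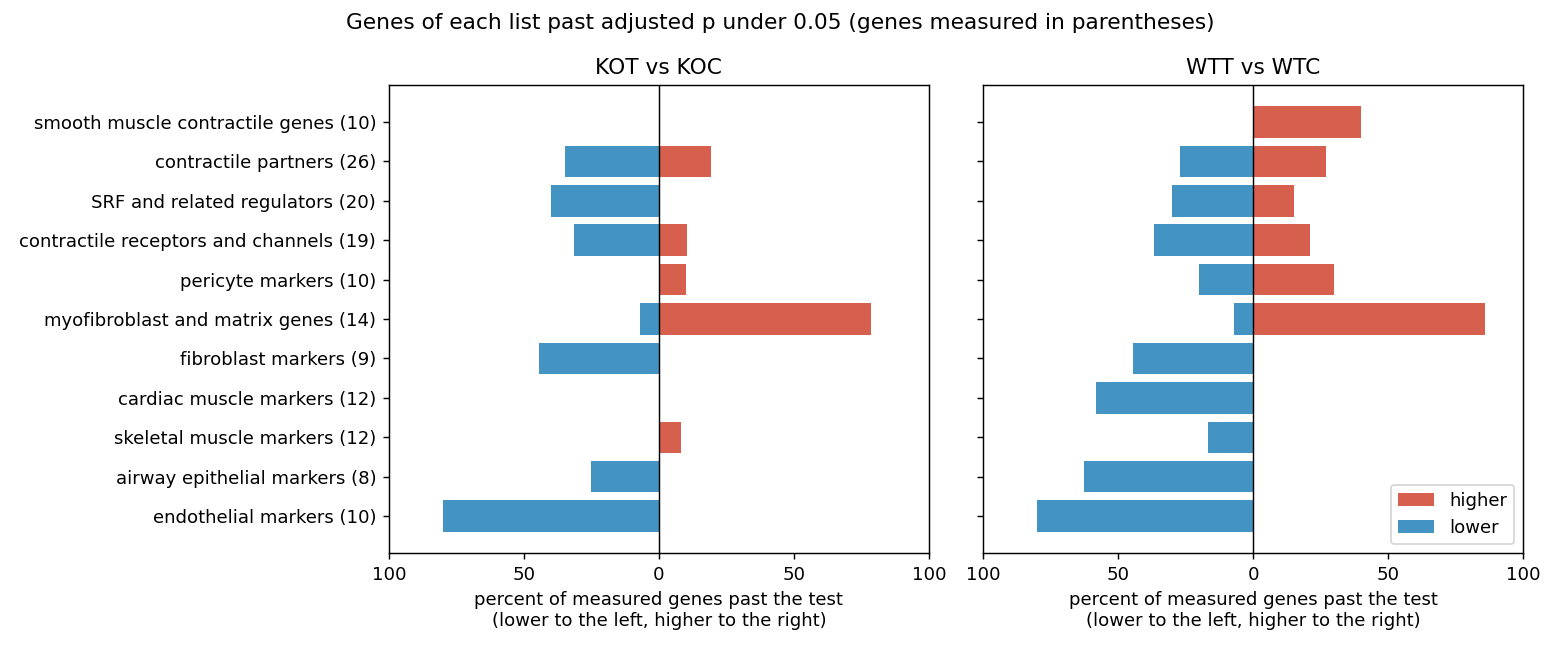
Percent of the measured genes of each list (number measured in parentheses) that passed at an adjusted p under 0.05, with genes that rose to the right of 0 and genes that fell to the left, for KOT vs KOC (left) and WTT vs WTC (right). Of the 10 contractile genes 0 passed in KOT vs KOC and 4 rose in WTT vs WTC, and of the 14 myofibroblast and matrix genes 11 and 12 rose.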

How the data were processed

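RMA of the Affymetrix Power Tools, run by the authors after quantile normalization across the samples, gave the deposited log2 values, 1 for each transcript cluster, and these were used unchanged. Arrays have no depth, and 3 mice a group limit the precision. RMA values compress differences and do not compare levels between genes.

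Symbols came from the platform annotation. Of 35556 clusters, 21789 carry 1 symbol, 1621 several and 12146 none. The 23410 with a symbol were fitted with limma 3.58.1 in R 4.3.3 (4 group means, 8 residual degrees of freedom, moderated variances), a fit tested on simulated data, with Benjamini-Hochberg adjustment over all of them. Intervals are 95% and tests two-sided. KOT was compared with KOC and with WTT, WTT and KOC with WTC, and the response of Fra-1-/- mice with that of Fra-1+/+ mice. The alternatives included the local-pooled-error (LPE) test of the methods, written anew.

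The members, gene lists and tests were chosen with earlier results of these data known. Named are all members, Fosl1, up to 4 genes a list and comparison with the smallest p, and the 5 genes most like the members by each measure. Srf, Mrtfa and Mrtfb were named beyond this rule. List genes with no cluster of their own were not analysed here. Promoters are RefSeq's of GRCm38.p6. The detection filter of the authors was not used here.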

Additional observations from a re-analysis of the deposited data

How the results depend on the processing

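Arrays have no depth, and 3 mice a group limit the precision. No paired analysis was possible because the animal numbers in the labels differ between all groups and no mouse stands in more than 1 of them. Each of the 10 genes has 1 cluster, so the mean of several clusters gave no value. Among the 4 genes that rose in WTT against WTC, at an adjusted p under 0.01 only 1 passed. By the LPE test, at its own threshold of 0.01, 2 passed, Actg2 higher and Cnn1 lower, while Tagln, Acta2 and Tpm2 did not. With array weights 1 gene passed in KOT against KOC, Synpo2. In KOC against WTC, in KOT against WTT and in the difference between responses 0 of 10 passed under every alternative run. Leaving out 1 array at a time, 2 to 5 genes passed in WTT against WTC, with Tagln and Acta2 in each case, and 0 to 1 in KOT against KOC.

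Of all clusters, 5027 passed in WTT against WTC, 2363 at an adjusted p under 0.01, 1854 by LPE and 3304 to 5211 with 1 array left out. In KOT against KOC 3604 passed, 1574 at an adjusted p under 0.01, 7118 with array weights, 1891 by LPE and 1854 to 3945 with 1 array left out. In KOT against WTT 10 passed, 1 at an adjusted p under 0.01, 6 over all clusters of the array, 24 with array weights, 165 by LPE, 23 with the 6 arrays of the comparison, 1 with a term for animal numbers, 3 with trended and robust moderation and 1 to 16 with 1 array left out. In KOC against WTC 3 passed, 418 by LPE, 1 with the 6 arrays of the comparison and 2 to 19 with 1 array left out. For the difference between responses 0 passed, 1 with a term for animal numbers and 0 to 3 with 1 array left out.

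Differences near 0 changed sign under some alternatives, and none of them had passed. With a term for animal numbers, in KOT against WTT Des had 0.078 and Synpo2 -0.0017, in WTT against WTC Lmod1 had 0.016 and Myh11 0.021, and in KOC against WTC Acta2 had -0.048, Actg2 -0.16, Myh11 -0.062 and Tpm2 -0.0083. By LPE, in KOT against KOC Myh11 had 0.11, in KOT against WTT Lmod1 had 0.11 and Myh11 0.021, and in KOC against WTC Cnn1 had -0.043, Myh11 -0.13 and Tpm2 -0.091. With array weights Myocd had -0.026 in KOT against KOC and Myh11 had 0.0027 in KOT against WTT, and with cyclic loess Cnn1 had -0.018 in KOC against WTC. Among Fra-1+/+ mice only WTC 76 had an animal number under 100, so the term for animal numbers rested on that 1 mouse. Leaving out WTC 76 gave the same values in WTT against WTC (Lmod1 0.016 and Myh11 0.021). LPE compares medians, where limma compares means. Why signs changed with array weights and with cyclic loess was not tested.

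With 1 array left out at a time, these differences changed sign. In KOT against KOC, Actg2 ran from -0.044 to 0.26, Lmod1 from -0.13 to 0.029, Myh11 from -0.24 to 0.019 and Myocd from -0.072 to 0.15. In WTT against WTC, Lmod1 ran from -0.17 to 0.016 and Myh11 from -0.11 to 0.021. In KOT against WTT, Des ran from -0.19 to 0.11, Lmod1 from -0.13 to 0.049, Myh11 from -0.11 to 0.058, Myocd from -0.14 to 0.013 and Synpo2 from -0.020 to 0.20. In KOC against WTC, Acta2 ran from -0.070 to 0.19, Cnn1 from -0.24 to 0.27, Des from -0.0064 to 0.35, Lmod1 from -0.14 to 0.031, Myh11 from -0.11 to 0.15, Myocd from -0.043 to 0.18 and Tpm2 from -0.069 to 0.12, and leaving out KOC 55 turned 6 of these 7 genes below 0. In the difference between responses, Cnn1 ran from -0.034 to 0.53, Lmod1 from -0.089 to 0.097 and Myh11 from -0.20 to 0.061.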
